A study of Mus musculus with 66 samples.

Results

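Ppp3ca, Nfia, Calb1, Kit and Hoxb3 served as marker genes of cerebellar neurons and of the hindbrain. Their transcripts were followed in the cerebellum of mice from weaning age to old age, on 2 diets. The members were the probes whose platform annotation gave exactly 1 gene symbol, that symbol being 1 of these 5 genes, and each probe was kept apart. The 5 genes are among 4209 genes that the 4875 probes with 1 symbol name, and their probes are 11 of 8448 on the filter. Calb1 had 4 probes, Kit, Nfia and Ppp3ca had 2 each, and Hoxb3 had 1.

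Calb1 encodes calbindin, a calcium-binding protein that fills Purkinje cells, the output neurons of the cerebellar cortex. Ppp3ca encodes the catalytic alpha subunit of calcineurin, a calcium-dependent phosphatase of neurons, and Nfia encodes a nuclear factor I transcription factor that takes part in the maturation of granule neurons. Kit, the receptor tyrosine kinase for stem cell factor, is known in this tissue from the inhibitory interneurons of the molecular layer, while its ligand Kitl is made by Purkinje cells. Hoxb3 is a homeobox gene that patterns the embryonic hindbrain behind the cerebellar territory. Except for Calb1, none of the members is restricted to a single cell type of the mature cerebellum.

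Total RNA from the cerebellum of each of 66 C57BL/6 mice was labelled with 33P-dCTP. It was hybridized to a nylon filter of cDNA clones, and 1 filter per mouse was analysed here. The labels mark this filter with the letter B, and the paper reports on more genes than the filter has probes. Counts on the filter or over all probes therefore refer to this filter alone. Any other filter of the study was not analysed here. Males and females fed ad libitum (AL) were killed at 17 to 21 days (3 females and 2 males), at 33 to 44 days (2 females and 3 males), and at 6 months (10 mice, 169 to 194 days), 16 months (10 mice, 476 to 499 days) and 24 months (9 mice, 704 to 743 days). Mice on caloric restriction (CR) were killed at 6 months (9 mice, 174 to 194 days), 16 months (10 mice, 472 to 499 days) and 24 months (8 mice, 673 to 743 days). The 3 CR males of 24 months were all 673 days old, against 719 to 743 days for the 4 AL males. Diet at 24 months therefore goes with a difference of age in males. Restriction began in young adulthood after ad libitum feeding and was deepened in steps over successive weeks, so the groups younger than 6 months have no restricted counterpart. All mice came from a single breeding colony and no genetic change was involved.

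The measurement was a Z score, the distance of a spot's signal from the mean of its array in units of the standard deviation (SD) over all probes of that array. A difference of 1 Z unit is therefore as large as that spread, and it cannot be turned into a fold change. The number of mice limits the precision, and neither signal over background nor spot quality was analysed here. In a bulk tissue sample, fewer cells of a type and less RNA per cell cannot be told apart. P values measure the spread between mice, each on its own filter, so animal and hybridization differences are mixed in them.

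Before any result, 3 arrays stood apart, with median correlations to the other arrays under 0.9, and were left out of the model. They were 1 restricted male and 1 restricted female of 16 months and 1 restricted female of 24 months, which left 63 arrays with median correlations of at least 0.921. Probe numbers were divided here into 384 runs of 22, and no map of the spots was used. On the male and the female of 16 months the probes at the eighth position of the runs averaged -2.70 and -2.69, against 0.309 on the other arrays. Kit probe 1 occupies that position and read -2.62 and -2.64 there, so its values depend on the exclusion. The labels also number the arrays up to 67, and these numbers were cut here into 5 successive sets, which no label names. Xist, a transcript of the inactive X chromosome, gave overlapping scores in females (-0.98 ± 0.15, SD, n = 33) and males (-1.04 ± 0.16, SD, n = 30), and every gene name below therefore means the probe as annotated.

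All 5 symbols matched protein-coding genes of the mouse RefSeq annotation (GRCm38.p6). Ppp3ca lies at chr3:136669714-136937727, Calb1 at chr4:15881264-15906709, Nfia at chr4:97578066-98118876, Kit at chr5:75574987-75656722 and Hoxb3 at chr11:96307101-96347930. Which exons of its transcript each clone covers was not analysed here. The level of a probe depends on its clone as well as on its transcript, so levels of different probes are not ranked against each other. The probe with the highest position within an array was Ppp3ca probe 2 (number 15107), whose mean Z score of 1.62 over 63 arrays lay above 95.1% of all probes. Hoxb3 (10613) averaged 1.28, above 89.3% of the probes. Kit probe 1 (9094) averaged 0.208 and Kit probe 2 (14796) -0.051. Nfia probe 1 (9331) averaged -0.302 and Nfia probe 2 (13545) 0.088, while Ppp3ca probe 1 (12612) averaged -0.659. The Calb1 probes 1 to 4 (11883, 12117, 12565 and 15295) averaged 0.385, -0.633, 0.168 and 0.019. A mean above 0, which the study required of a pair of conditions before calling a change, was met by 7 of the 11 probes over the 63 arrays.

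None of the 11 member probes passed the test for adult age or for diet. A linear model (limma) with 1 mean for each of the 16 sex, age and diet groups was fitted to all 8448 probes, and calls were made where the p adjusted over all of them (Benjamini-Hochberg) was under 0.05. In each of the 13 comparisons among adult mice 0 of 11 members were called, and the share called among all probes was 0% in each as well. Over the 143 tests of members in these comparisons, the smallest limma adjusted p was 0.738. At an unadjusted limma p under 0.05 there were 2 members' tests, 1 between 16 and 24 months and 1 for diet in females of 24 months. The shares of all probes under this unadjusted threshold were 1.3%, 3.88% and 2.47% between 6 and 16, 16 and 24, and 6 and 24 months AL, and 2.13%, 2.63% and 1.08% between the same ages on CR. For diet they were 0.71%, 2.1% and 2.27% at the 3 ages. The 95% confidence interval of a member's difference had a median half-width of 0.147 Z units between 6 and 24 months AL, and of 0.089 for diet averaged over the adult ages. Between 6 and 24 months AL the half-widths of the single members ran from 0.0927 to 0.305.

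**Figure D1:**
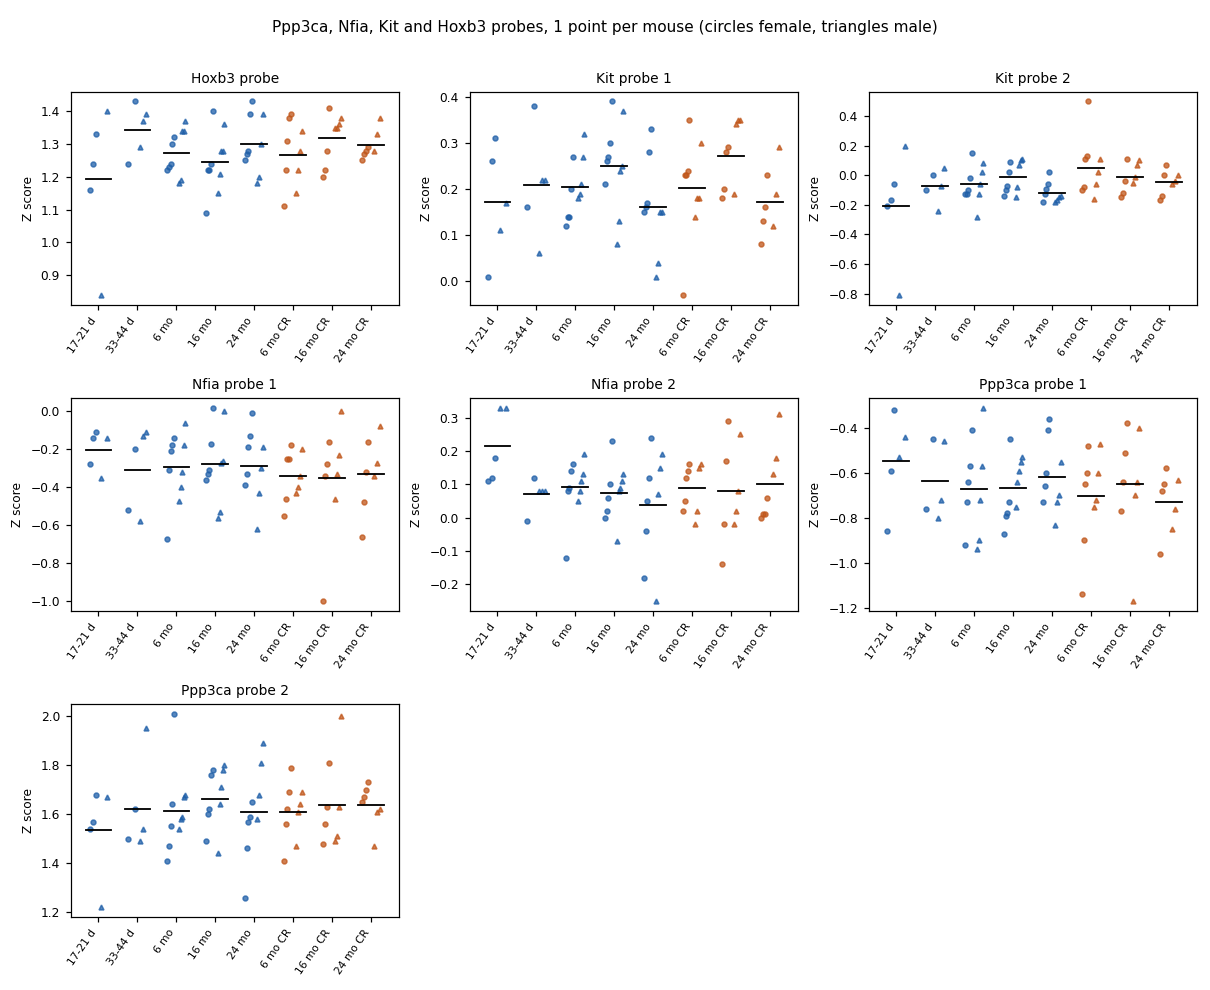
Z score (vertical axes, each panel with its own range) of the Hoxb3, Kit, Nfia and Ppp3ca probes in the 63 arrays used, with 1 point per mouse, circles for females, triangles for males, blue for AL, orange for CR, and a bar at the mean of each cohort. The 6 adult cohorts of each probe overlap, 1 male of 17-21 days lies apart at 0.84 for Hoxb3 and -0.81 for Kit probe 2, and the other male of that age is at 1.22 for Ppp3ca probe 2.

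**Figure D2:**
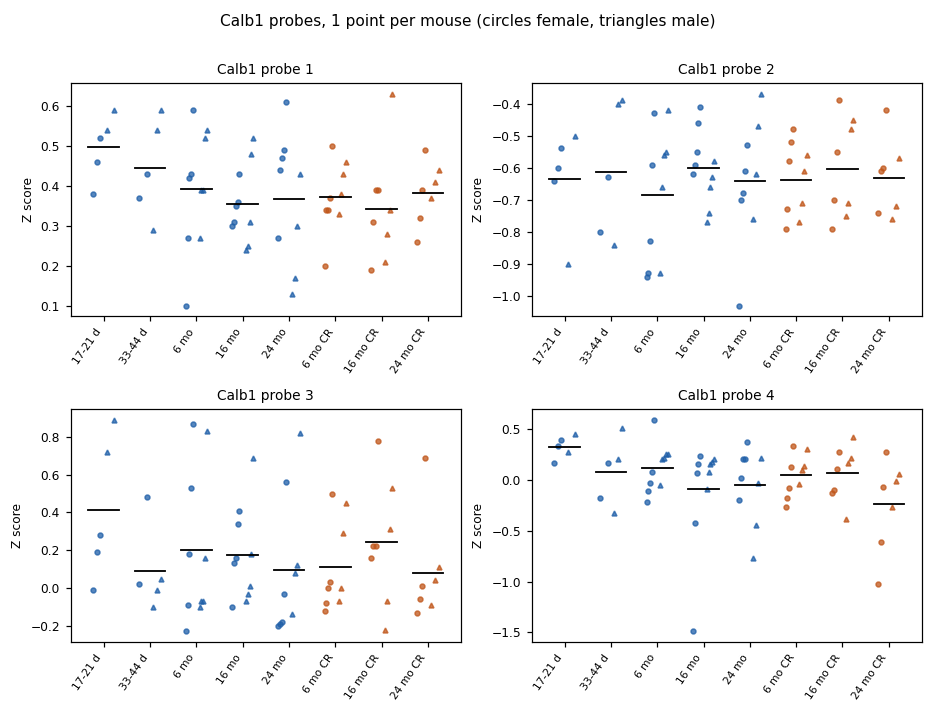
Z score of the 4 Calb1 probes in the same mice, drawn in the same way. The cohorts overlap for every probe, probe 3 has single mice far above the rest in most cohorts, and probe 4 reaches down to -1.49 in 1 female of 16 months AL.

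Calb1, the Purkinje cell member, gave no concordant adult change over its 4 probes. Between 6 and 24 months AL, probe 4 had a difference of -0.19 (SE 0.15), probe 3 one of -0.095, probe 1 one of -0.035 and probe 2 one of 0.052, and 0 of the 4 reached an unadjusted p under 0.05, against 2.47% of all probes. On CR, probes 1 to 4 differed by 0.011, 0.0033, -0.043 and -0.271 between 6 and 24 months. Between 16 and 24 months they differed by 0.043, -0.035, -0.168 and -0.288, the last being the largest adult age difference of a member. None of these had an unadjusted limma p under 0.05, against 1.08% and 2.63% of all probes. The 21 other probes in the run of probe 4 had median CR differences of -0.183 and -0.145, with 33.3% and 14.3% under 0.05 unadjusted. The means of the 6 adult cohorts spanned 0.049 for probe 1, 0.083 for probe 2, 0.16 for probe 3 and 0.355 for probe 4. The pooled SD between mice of a cohort was larger than that span for each, at 0.123, 0.156, 0.316 and 0.36. A span set against an SD of single mice is a description and no test, and the tests of these cohorts are those of limma.

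Diet in females of 24 months was the 1 adult setting in which a Calb1 probe had an unadjusted limma p under 0.05. Probe 4 read 0.21, 0.21, 0.37, 0.02 and -0.2 in the 5 AL females and 0.27, -0.07, -0.61 and -1.02 in the 4 CR females used. The CR females reached lower, and the groups overlapped. The difference of -0.48 (SE 0.22) had a limma p of 0.035 and an adjusted p of 0.738, in a comparison in which 5.48% of all probes had an unadjusted p under 0.05. The exact permutation p over the 126 arrangements of these females was 0.143. Calb1 probes 1, 2 and 3 differed by -0.091, 0.118 and 0.136 in the same females. With the array sets as a block the difference for probe 4 was -0.42, and its lowest AL and lowest CR female both lay in the fifth set.

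The Ppp3ca probes of calcineurin had cohort means from 6 to 24 months that spanned less than the SD between mice. Probe 1 ranged over cohort means from -0.73 in the 24-month CR mice to -0.62 in the 24-month AL mice, a span of 0.111 against a pooled SD of 0.189. Probe 2 ranged from 1.61 to 1.66, a span of 0.053 against a pooled SD of 0.148. Differences between 6 and 24 months AL were 0.044 for probe 1 and 0.009 for probe 2. In females of 24 months, probe 2 read 1.59, 1.57, 1.26, 1.46 and 1.65 on AL and 1.65, 1.70, 1.67 and 1.73 on CR. The CR females were at or above the highest AL female, and the difference of 0.18 (SE 0.10) had an exact permutation p of 0.0397 over 126 arrangements, a limma p of 0.0881 and an adjusted p of 0.738. The other probes of its run of 22 had a median difference of 0.079 in the same comparison. Ppp3ca probe 1 differed by -0.165 there, and the female left out of the model read 2.29 for probe 2 and -0.40 for probe 1.

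The adult cohort means of Nfia, a transcription factor gene, also lay close together. Cohort means of probe 1 lay between -0.35 and -0.28 and those of probe 2 between 0.039 and 0.1, spans of 0.073 and 0.061 against pooled SDs of 0.199 and 0.115. The differences between 6 and 24 months AL were -0.0035 and -0.052. Hoxb3 had the narrowest scatter of all members in adults, with cohort means of 1.25 to 1.32, a span of 0.074 and a pooled SD of 0.081. Its age difference was largest from 6 to 16 months on CR, at 0.054 (SE 0.053, limma adjusted p = 0.999).

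Kit, the interneuron member, had the 1 adult age difference with an unadjusted limma p under 0.05. By exact permutation 3 of its differences between 16 and 24 months were under 0.05, among 6 of 143 such tests of the members. Probes outside the members had no exact test, so no share over all probes stands beside these counts. The adult cohort means of Kit spanned 0.113 for probe 1 and 0.172 for probe 2, more than the pooled SDs of 0.088 and 0.121, unlike those of the other members. In AL mice Kit probe 1 had a lowest, median and highest score of 0.12, 0.195 and 0.32 at 6 months, 0.08, 0.255 and 0.39 at 16 months and 0.01, 0.15 and 0.33 at 24 months. In the CR mice used they were -0.03, 0.23 and 0.35 at 6 months, 0.18, 0.285 and 0.35 at 16 months and 0.08, 0.16 and 0.29 at 24 months. The 16-month cohort had the highest median on both diets, and all 3 ages overlapped.

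From 16 to 24 months on AL, Kit probe 1 had a difference of -0.0973 (SE 0.0462, limma p = 0.0401, adjusted p = 0.999, exact permutation p = 0.027). On CR the difference was -0.0975 (SE 0.052, limma p = 0.0672, adjusted p = 0.998, exact permutation p = 0.0229). In the AL comparison 3.88% of all probes had an unadjusted p under 0.05. The 383 other probes at the eighth position of their runs, where Kit probe 1 lies, had a median AL difference of -0.051, and 11.7% of them had an unadjusted p under 0.05. On CR their median difference was -0.0067, with 3.92% under 0.05 unadjusted. The 21 other probes in the run of Kit probe 1 had median differences of -0.012 on AL and -0.070 on CR. With each position of the runs set to the same level on every array, the AL difference of Kit probe 1 was -0.0482 (SE 0.0368). With all 66 arrays in the model the CR difference became 0.445, through the male and the female of 16 months described above. The part of the position or the run in the AL and CR differences was not tested beyond these values.

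Kit probe 2 had a difference over the same months of -0.109 on AL (SE 0.0733, limma p = 0.143, exact permutation p = 0.024) and -0.035 on CR (limma p = 0.67). The 4 AL males of 24 months read -0.14, -0.18, -0.17 and -0.15, at the low end of the AL scores, and the AL females of that age -0.18 to 0.02. Between 6 and 24 months AL the differences were -0.051 for probe 1 and -0.064 for probe 2, with unadjusted limma p values above 0.05. Kit probe 2 also had the largest diet difference averaged over the adult ages, 0.062 (SE 0.044, limma adjusted p = 1), toward higher scores on CR. Its highest adult score, 0.5, came from 1 CR female of 6 months. The other 10 members differed with diet by -0.046 to 0.025, and 0 of 11 had an unadjusted p under 0.05, against 1.68% of all probes.

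**Figure D3:**
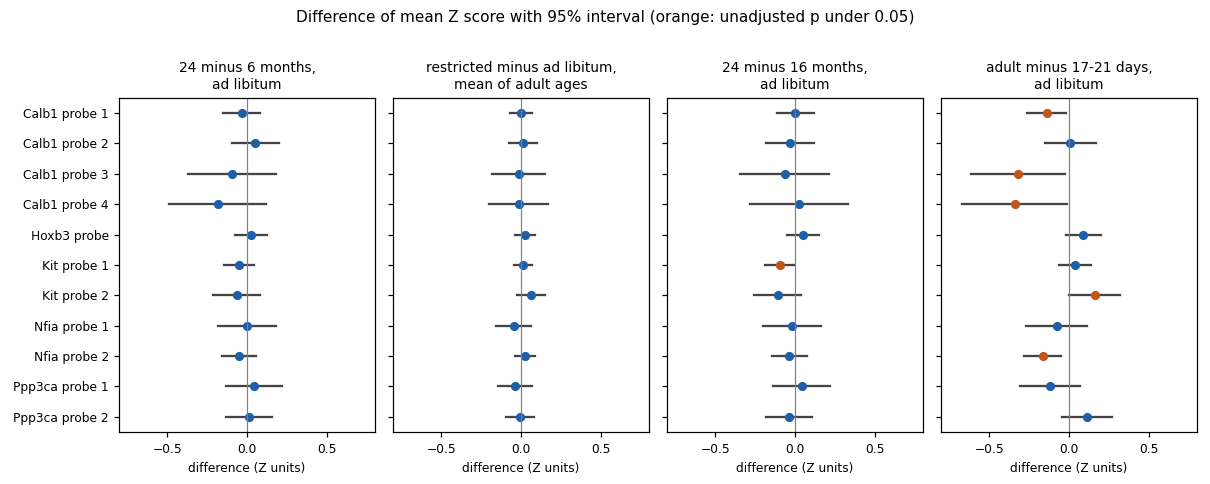
Differences of mean Z score (horizontal axes, Z units) with 95% confidence intervals from limma for the 11 member probes in 4 comparisons, sexes weighted equally, with unadjusted p under 0.05 in orange. None passed the adjusted threshold, and intervals are widest for Calb1 probes 3 and 4.

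Neither sex nor the combination of diet and age separated the members. Females differed from males in adults by -0.105 (Calb1 probe 4) to 0.023 (Ppp3ca probe 1), and 0 of 11 had an unadjusted p under 0.05, against 1.33% of all probes. The change from 6 to 24 months differed between CR and AL mice by -0.085 (Calb1 probe 4) to 0.078 (Nfia probe 2), and 0 of 11 had an unadjusted p under 0.05, against 0.9% of all probes. Between 33 to 44 days and 6 months AL, the members' differences ran from -0.07 (Hoxb3) to 0.086 (Calb1 probe 3), and 0 members and 0% of all probes were called. At an unadjusted p under 0.05 were 0 members and 1.76% of all probes.

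Calls were made in the comparisons with mice of 17-21 days, none of them a member. From 17-21 days to the mean of the adult AL ages, the share of all probes called was 1.3%, and 20.2% were under 0.05 unadjusted. Of the members, 0 of 11 were called, and an unadjusted p under 0.05 was found for 5 (Calb1 probes 1, 3 and 4, Kit probe 2 and Nfia probe 2). From 17-21 to 33-44 days 0 of 11 members were called, against 0.249% of all probes, and from 17-21 days to 6 months again 0 of 11, against 0.414%. In these 2 comparisons 2 members and 1 member had an unadjusted p under 0.05, against 13.2% and 10.4% of all probes.

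Nfia probe 2 had the smallest p of the members. It read 0.12, 0.11 and 0.18 in the 3 females and 0.33 in both males of 17-21 days, and 0.12 and -0.01 in the females and 0.08 in each male of 33-44 days. The 29 adult AL mice had a lowest, median and highest score of -0.25, 0.09 and 0.24. Of these adults, 17 lay below every mouse of 17-21 days and 0 above the highest of them, and the ranges overlapped. The difference from 17-21 days to adult was -0.165 (SE 0.0572, limma adjusted p = 0.151). It was -0.166 to 33-44 days (adjusted p = 0.34 by limma, exact permutation p = 0.03, where 100 arrangements exist) and -0.142 to 6 months (adjusted p = 0.467 by limma, exact permutation p = 0.00935). The 21 other probes of its run had a median difference of -0.125 from 17-21 days to adult, and with each run of 22 set to the same level on every array the value for Nfia was -0.0906 (SE 0.0436). The other probes at its position of the runs had a median difference of 0.044, and with positions set to the same level the value was -0.203 (SE 0.0636, limma adjusted p = 0.0935). Nfia probe 1 had a difference of -0.079 over the same ages, with scores of -0.35 to -0.11 at 17-21 days inside the adult AL range of -0.67 to 0.02.

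Of the Calb1 probes, 3 of 4 had differences below 0 from 17-21 days to adult with an unadjusted p under 0.05, a threshold that 20.2% of all probes met. Probe 1 read 0.38 to 0.59 at 17-21 days and 0.1 to 0.61 in AL adults, with a difference of -0.141 (SE 0.061, limma adjusted p = 0.206). Probe 3 read -0.01 to 0.89 in the young mice, the males at the top, and -0.23 to 0.87 in AL adults, with a difference of -0.32 (SE 0.148, adjusted p = 0.224 by limma). Probe 4 read 0.17 to 0.45 and -1.49 to 0.59, with a difference of -0.341 (SE 0.163, adjusted p = 0.234 by limma). Young and adult mice overlapped for each. Probe 2 had a difference of 0.0075, with scores of -0.9 to -0.5 in the young mice and -1.03 to -0.37 in AL adults.

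The array sets and the position of a probe number in its run moved with these Calb1 values. No mouse of 17-21 days lay in the fifth array set, where probe 1 and probe 4 had their lowest means, 0.285 and -0.33. With the sets as a block the differences were -0.125, -0.231 and -0.258 for probes 1, 3 and 4, with limma adjusted p values of 0.247, 0.29 and 0.28. The other probes at the third position of their runs, where probes 1 and 3 lie, had a median difference of -0.117, and 30% of them had an unadjusted p under 0.05. At the fifth position, where probe 4 lies, these values were -0.105 and 20.6%. With positions set to the same level the differences were -0.041, -0.219 and -0.249. The study's thresholds are a mean Z above 0, a Z ratio of at least 1.5 in size and an unadjusted p under 0.05. A Z ratio is the difference over the SD of the differences, taken here over all 8448 probes. With limma p values, and without the study's further two-way analysis of variance, Calb1 probes 3 and 4 met them. Their Z ratios were -2.14 and -2.28, and 4.77% of all probes met the same thresholds. The study's own design did not include mice of 17-21 days.

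The young values of Hoxb3 and Kit probe 2 depended on each of the 2 males of 17-21 days. At 17-21 days Hoxb3 read 1.24, 1.33 and 1.16 in females and 0.84 and 1.40 in males, and Kit probe 2 read -0.06, -0.17 and -0.21 in females and -0.81 and 0.20 in males. The first of these males had the lowest value of its age for both probes, and its median correlation with the other arrays, 0.921, was the lowest of the arrays used. Hoxb3 differed by 0.161 between 17-21 and 33-44 days (adjusted p = 0.322 by limma), and by 0.021 without that male. Kit probe 2 differed by 0.16 between 17-21 days and adult (adjusted p = 0.244 by limma), and by -0.093 without that male. Without the other male the values were 0.301 and 0.412. Each of these fits keeps a single male of 17-21 days, so only the differences are given. Leaving out the other male also raised the number of calls over all probes in both comparisons, so the rise was not particular to these 2 probes. The runs in which the 2 probes lie had median differences of 0.163 and 0.153 over the same ages, and with the runs set to the same level on every array the 2 differences were -0.015 and -0.061. Kit probe 1 differed by 0.036 from 17-21 days to adult, and the Ppp3ca probes by -0.118 and 0.112, each with an unadjusted limma p above 0.05. Ppp3ca probe 2 differed by 0.225 without the first male and by -0.000333 without the other, which read 1.22.

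Probes of the same gene were compared over the 63 arrays, as a description, since arrays of 1 set and probes of 1 position share influences on their scores. The 2 Kit probes correlated by 0.306 (Pearson r), the 2 Nfia probes by 0.186 and the 2 Ppp3ca probes by -0.409. The 6 pairs of Calb1 probes ran from -0.215 to 0.494, the highest between probes 1 and 4. Over the 9 same-gene pairs the median r was -0.044, and over the 46 pairs of different member genes it was -0.009, within a range of -0.671 to 0.553. Above 0 were 4 of the 9 same-gene pairs and 21 of the 46 others.

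**Figure D4:**
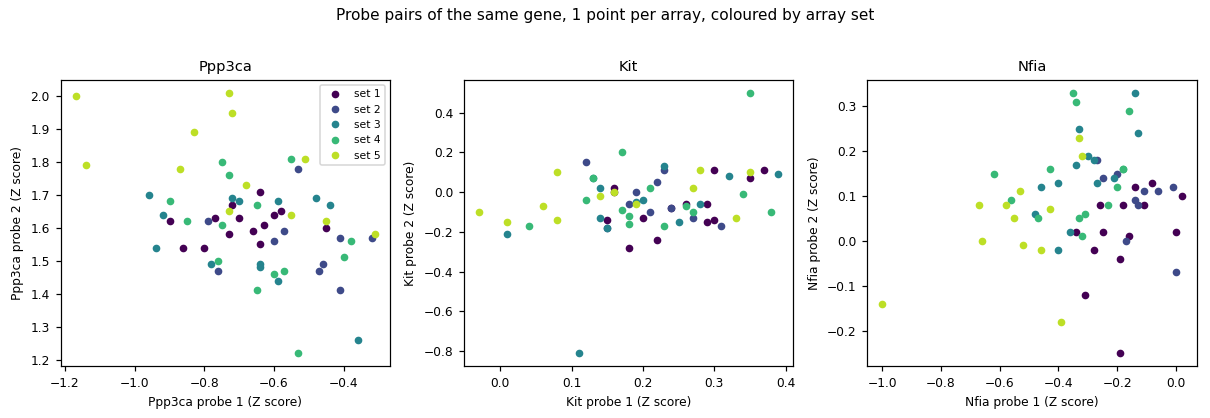
Z scores of both probes of Ppp3ca, Kit and Nfia (one on each axis), with 1 point per array of the 63 used, coloured by array set. The Ppp3ca probes run in opposite directions (r = -0.409), with fifth-set arrays at the top left, and the Kit (r = 0.306) and Nfia (r = 0.186) probes scatter widely.

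The array set held a share of the spread within groups that differed between probes. For Nfia probe 1 it held 52.5% of the sum of squares within groups, more than for 98.8% of all probes. The shares for Calb1 probes 3 and 4 were 41.1% and 40.2%, and that for Ppp3ca probe 2 was 32.1%, against a median of 21.9% over all probes. Kit probe 2 and Hoxb3, at 3.6% and 2.3%, had the smallest shares of the members. Nfia probe 1 averaged -0.134 in the second set and -0.537 in the fifth, and Calb1 probe 3 averaged -0.069 in the first and 0.5 in the third. With the sexes together, adult cohorts were spread over the sets in nearly equal numbers, except that no CR mouse of 16 months used lay in the second set. Within single sexes further sets were empty. Of the mice of 24 months used, no CR female and no AL male lay in the second set, and no CR male in the third. The only adult CR male in the fifth set was of 16 months. In the second set, the diet comparison in females of 24 months therefore had AL mice alone.

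**Figure D5:**
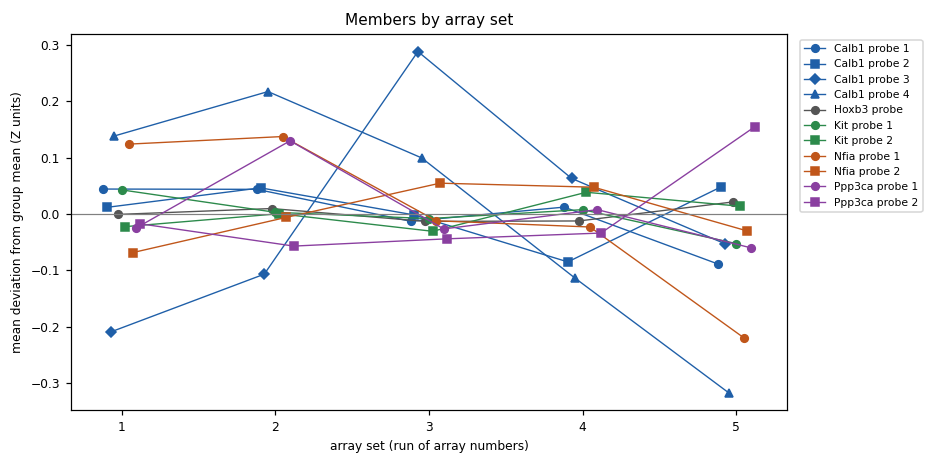
Mean deviation from the group mean (vertical axis, Z units) of each member probe in the 5 array sets (horizontal axis), over the 63 arrays. Calb1 probes 3 and 4 range most widely, from -0.209 to 0.288 and from -0.317 to 0.217, and Hoxb3 stays near 0.

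The probes of other genes whose pattern was most like a member over the 63 arrays lay in part near it in the order of probe numbers. Closest to Kit probe 1 was Rgs19 (r = 0.807), at the same position of the preceding run. The closest probes to Kit probe 2 were Tmx4 (r = 0.858) and Sdc2 (r = 0.837), both in its own run. Calb1 probe 1 was closest to Kmt5b (r = 0.895) and Calb1 probe 4 to St6galnac3 (r = 0.929), both of the same run as the member. Calb1 probe 2 was closest to Tmtc4 (r = 0.634) and Calb1 probe 3 to Snrpg (r = 0.901). Hoxb3 was closest to Pole4 (r = 0.784), Nfia probe 1 to Sh3bgrl (r = 0.895), at the same position of the next run, and Nfia probe 2 to Gm16853 (r = 0.601). Ppp3ca probe 1 was closest to Vta1 (r = 0.642) and Ppp3ca probe 2 to Armc5 (r = 0.921). Of the 33 nearest probes, 3 for each member, 4 lay in the member's own run.

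Other genes of the same cell types and pathways were counted on the same filter. Granule neuron markers had 4 other probes (Kcnd2, Mef2a, Mef2d and Nfix), Purkinje markers 4 (Car8, Dner, Foxp2 and Kitl), interneuron markers 2 (Ptprk and Sorcs3) and hindbrain patterning genes 4 (Meis1, Meis2, Pbx2 and Rarb). None of them was called, in either direction, in any of the 17 comparisons. Other markers that define these cells, such as Pcp2 and Gabra6, were not analysed here. The smallest limma p of each list belonged to the following probes, none of which passed the adjusted threshold. Car8, a carbonic anhydrase-related protein of Purkinje cells, differed by 0.307 from 17-21 days to adult (adjusted p = 0.0897), and the transcription factor Mef2d by -0.157 (adjusted p = 0.184). Rarb, a retinoic acid receptor, differed by -0.188 over the same ages (adjusted p = 0.221), and the receptor phosphatase Ptprk by -0.213 from 17-21 to 33-44 days (adjusted p = 0.372). From 17-21 days to adult the median difference of these 4 lists was 0.062 (granule), 0.015 (Purkinje), 0.036 (interneuron) and -0.031 (hindbrain), beside -0.0016 over all probes.

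The partners of the member proteins gave the same counts. Calcineurin partners and targets (15 probes), the nuclear factor I family and its partners (8), other calcium-binding proteins (7) and KIT ligand and signalling (18) had 0 probes called in either direction in any of the 17 comparisons. The KIT ligand Kitl had the smallest p of its list, with a difference of 0.137 from 33-44 days to 6 months (limma adjusted p = 1). Among the calcineurin partners Rcan3, of the family of calcineurin regulators, differed by 0.668 with diet in females of 24 months (limma adjusted p = 0.738). Nfic, another nuclear factor I gene, differed by 0.302 from 6 to 16 months on CR (limma adjusted p = 0.999), and the calcium-binding Sri by 0.241 from 16 to 24 months AL (limma adjusted p = 0.999). From 16 to 24 months AL, the span of the Kit differences above, the 18 probes of KIT ligand and signalling had a median difference of -0.018, with 1 higher and 0 lower at an unadjusted p under 0.05, beside a median of -0.003 over all probes.

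Markers of other cells were read on the same terms. Astrocytes and Bergmann glia had 5 probes, microglia 3, vessels, meninges and blood 21, choroid plexus and ependyma 2, mast cells, which also carry Kit, 2, and forebrain neurons 1, while oligodendrocytes had 0. None was called in any comparison. From 16 to 24 months the vascular and blood probes had a median difference of -0.062 on AL and -0.097 on CR, with 2 and 5 of 21 lower at an unadjusted p under 0.05. Over all probes the medians were -0.003 and 0.0029, and 3.88% and 2.63% had an unadjusted p under 0.05 in either direction. Of the 21 probes, 12 were of the alpha globin gene Hba-a1. Their part in the Kit differences over the same months was not tested. The mast cell marker Hdc had 0 of its probes under an unadjusted 0.05 in the adult comparisons.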

How the data were processed

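Cerebellar RNA of 66 mice was measured on 66 nylon cDNA filters, and of the 67 array numbers 1 was not analysed here. For each array the authors deposited a Z score per probe (mean 0, SD 1 over the array), made from phosphor images. Background treatment and whether logarithms were taken are not given in the sources used here. Because each array is centred and scaled, a shift of all probes cannot be seen. Groups came from the sex, age and diet labels. Members and gene lists were chosen with earlier results of these data known, and some lists came from that earlier work.

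A model with 16 group means was fitted with lmFit, contrasts.fit and eBayes of limma 3.58.1 (R 4.3.3) to all 8448 probes on 63 arrays, leaving 47 residual degrees of freedom, with sexes weighted equally and no filter on brightness. The script was tested on simulated data. Arrays with a median correlation under 0.9 were left out. The calling threshold was an adjusted p of 0.05, two-sided, over 17 comparisons. Members were also tested by exact permutation of mice within sex, two-sided and unadjusted: 143 tests over 13 comparisons, 6 of them with p under 0.05. Genes were named by rule: every member, the probe with the smallest p of each list, and the 3 nearest probes of each member, from probes with 1 symbol (224 had several and 3349 none). Alternatives were all 66 arrays, only the groups compared, the study's thresholds without its analysis of variance, a brightness filter and quantile normalization. Others were array weights, array sets as a block, correction by position or run, and each array left out in turn.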

Additional observations from a re-analysis of the deposited data

Results flagged for a closer look

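Single mice lay far from the others of their group in 13 of 121 sets of 4 or 5 mice, tested by the gap to the nearest mouse over the range. Chance flags about 1 in 20 groups, or 6.1 of 121. On arrays that the model did not use lay 4 of them. Kit probe 1 read -2.64 in 1 CR female of 16 months, with the others at 0.18 to 0.29, and -2.62 in 1 CR male, with the others at 0.19 to 0.35. That male also read 1.18 for Hoxb3, against 1.35 to 1.38, and 1 CR female of 24 months read 2.29 for Ppp3ca probe 2, against 1.65 to 1.73.

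Calb1 probe 3 gave 5 of the others, all in the third or the fourth array set. It read 0.78 in 1 CR female of 16 months (others 0.16 to 0.31), 0.56 in 1 AL female of 24 months (others -0.2 to -0.03) and 0.69 in 1 CR female of 24 months (others -0.21 to 0.01). It read 0.5 in 1 CR female of 6 months (others -0.12 to 0.03) and 0.83 in 1 AL male of 6 months (others -0.1 to 0.16), and the same male read -0.05 for Calb1 probe 4 (others 0.21 to 0.25). The part of the array set in these values was not tested.

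Nfia probe 2 read -0.12 in 1 AL female of 6 months (others 0.08 to 0.16) and -0.07 in 1 AL male of 16 months (others 0.08 to 0.13). Ppp3ca probe 2 read 2 in 1 CR male of 16 months, with the others at 1.49 to 1.63.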

How the results depend on the processing

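The members' results were recomputed under 13583 combinations of probe, comparison and alternative. Of these, 11781 left out 1 array, in many cases an array of neither group compared. The status of called or not called was kept in 13575, and a call was gained in 8. With 0 members called in the model used, a kept status means a member that stayed uncalled, so the count does not measure stability. Of the gains, 2 came under the study's thresholds, which use no adjusted p, and the rest with 1 array left out. The sign changed in 567, of which 564 were differences with an unadjusted limma p of 0.05 or above and 3 reversed one with a p under 0.05. The reversals were Hoxb3 from 17-21 to 33-44 days, -0.015 with runs corrected against 0.161, and Kit probe 2 from 17-21 days to adult, -0.0612 with runs corrected and -0.093 without the first male of 17-21 days, against 0.16. Members called were 0 in all 17 comparisons, and 2 from 17-21 days to adult under the study's thresholds without its analysis of variance. Members called were 0 to 2 when arrays were left out in turn. The 2 were Hoxb3 and Kit probe 2, without the second male of 17-21 days in each of the 3 comparisons with that age (Kit probe 2 to adult then 0.412). Kit probe 1 from 16 to 24 months on CR was -0.0975 with 63 arrays, 0.445 with all 66 and -0.123 with all 66 and positions corrected.

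Counts over all probes in these 3 comparisons depended on the same mice. From 17-21 to 33-44 days 21 probes were called, 0 with all 66 arrays, 74 with positions corrected, and 0 to 657 with arrays left out. To 6 months 35 were called, 0 with all 66 arrays, 58 with the filter on mean Z, and 0 to 616 with arrays left out. To adult 110 were called, 50 with array weights, 143 with positions corrected, 1 without the first male and 749 without the second. From 33-44 days to 6 months 0 were called, 13 with array weights, and up to 14 with arrays left out. Elsewhere the count went from 0 to at most 1. No paired analysis was possible because the labels give no replicate numbers that groups share. The array sets, which cut across the groups, were fitted as a block instead, and 0 members were called in any of the 17 comparisons. The number of mice, 2 or 3 per sex in the groups under 6 months, limits these comparisons.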

Other observations

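Among markers of other cells, the probe with the smallest limma p of each list did not pass the adjusted threshold. Vim, an intermediate filament of Bergmann glia and astrocytes, differed by 0.229 from 17-21 days to adult (limma adjusted p = 0.131). Of the 5 probes of its list, 2 had differences above 0 over these ages and the median was -0.0521, with 1 higher and 2 lower at an unadjusted p under 0.05. From 17-21 to 33-44 days, 1 of the 12 probes of Hba-a1, an alpha globin of red blood cells, differed by -0.228 (limma adjusted p = 0.195). The 21 vascular and blood probes had a median of 0.0475 over these ages, with 1 higher and 1 lower at an unadjusted p under 0.05. Over the same ages the ependymal Ccdc153 differed by -0.283 (limma adjusted p = 0.27) and the microglial complement gene C1qc by -0.151 (limma adjusted p = 0.386). The histamine-forming enzyme Hdc of mast cells differed by -0.168 from 6 to 24 months on CR (limma adjusted p = 1), and Ppp1r1b, a phosphatase inhibitor of striatal neurons, by -0.213 with diet in females of 24 months (limma adjusted p = 0.738).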
